A study of Homo sapiens with 8 samples.

Results

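UDSCC2, called SCC2, is an established HPV+ squamous cell carcinoma line of the head and neck. RNA of its cisplatin-resistant clone #35 was compared here with RNA of its parental cells, taking the 2 libraries of each group by their titles, 4 of the 8 libraries in the series. The resistant cells had been selected in 5 and then 10 μM cisplatin, cloned from single cells at the higher dose, and grown without cisplatin afterwards. The parental cells were neither selected nor cloned. The resistant group is therefore 1 clone set against an uncloned population, so what selection and what cloning contributed cannot be told apart. The other 4 libraries, used for the spread and to compare the lines, come from the HPV− line UPCISCC89 (selected in 2.5 and then 5 μM) and its resistant clone.

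Cisplatin enters cells partly through copper transporters and volume-regulated anion channels, is bound by glutathione and metallothioneins, and forms adducts and crosslinks on DNA. Nucleotide excision repair, the Fanconi anemia pathway and homologous recombination remove these lesions, translesion polymerases copy past them, and unrepaired lesions can trigger apoptosis. In HPV+ cells the viral proteins E6 and E7 inactivate p53 and RB, and p16 (CDKN2A) is commonly abundant. Squamous carcinoma cells carry the genes of stratified epithelium, basal keratins, desmosomal cadherins and the transcription factor p63 among them, and express part of its differentiation program.

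The labels were first checked against marker genes. CPM are read pair counts scaled to library sizes of 1000000. Of 25 markers of squamous epithelium, 24 reached 1 CPM in each of the 4 libraries. They summed to 12410 and 13020 CPM in parental cells and 12040 and 10340 CPM in the clone. By the test described below, 2 of the 25 were higher and 5 lower in the clone (28.0% called, against 8.0% of all genes). TP63, the p63 gene, had 417 and 416 CPM in the parental libraries and 570.5 and 584 CPM in the resistant libraries. CDKN2A had 419 and 316 CPM in the parental libraries and 175 and 203 CPM in the resistant libraries, a difference that did not pass the test (log2 fold change −0.96, standard error 0.32, adjusted p = 0.0725). Of 14 fibroblast markers, 4 had 0 counts and 7 or 8 reached 1 CPM in each library. Their summed level was 3080 and 3401 CPM in parental cells and 3247 and 1471 CPM in the clone, and most of it was COL3A1, at 2718 and 2974 CPM and 3079 and 1358 CPM respectively, while COL1A1, the most abundant collagen of fibroblasts, stood between 5.16 and 6.70 CPM. The 11 endothelial and 16 leukocyte markers summed to 1.13 to 1.59 and 2.04 to 3.76 CPM. The 12 melanocyte and nerve markers summed to 4.99 and 5.06 CPM in parental cells and 18.0 and 13.1 CPM in the clone, of which SYT1, a synaptic vesicle protein, had 2.08 and 2.19 against 13.6 and 8.29 CPM, and their part in the results was not tested. Of the 36 annotated transcripts of SYT1, 12 were quantified. Of 92 genes expressed in HPV− and not in HPV+ parental cells, 3 reached 1 CPM in both libraries of the HPV+ clone, and of 74 genes with the opposite pattern 71 did.

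The HPV+ libraries held 24997474 to 27341284 read pairs. The 2 parental libraries had reads on 82091 and 79669 transcripts and the 2 resistant libraries on 66493 and 70894, and pseudogenes took 0.403 and 0.463% against 0.635 and 0.624% of the counts, a difference whose part in the results was not tested. Pearson's r of log2 CPM between the 2 libraries, across genes, was 0.988 for parental cells and 0.975 for the clone. Whether the paired libraries were made from different cultures is not stated, and the p-values therefore reflect the spread between libraries, which could be technical.

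Of 15221 genes tested, 518 (3.4%) were higher and 700 (4.6%) were lower in the resistant clone, 1218 (8.0%) in all, with calls requiring an adjusted p below 0.05 and a log2 fold change past 1. The median log2 fold change was 1.57 among the higher and −1.46 among the lower genes and 0.00 over all genes tested. Changes of more than 8 times (a log2 fold change beyond 3) were found for 84 higher and 130 lower genes. Higher genes tended to lie at lower levels, with a median of 6.82 CPM over the 4 libraries against 12.8 CPM for lower genes and 21.3 CPM for all. A count of 189 higher and 269 lower genes, 458 or 3.01% of those tested, passed again without each of the 4 HPV+ libraries in turn. These are called repeated calls in what follows, and single genes are of this kind unless stated. With 1 library left in a group, that library is assumed to vary like the others. The number of calls was smallest without parental library 1, at 240 higher and 326 lower, and was 313 and 496 without parental library 2.

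**Figure D1:**
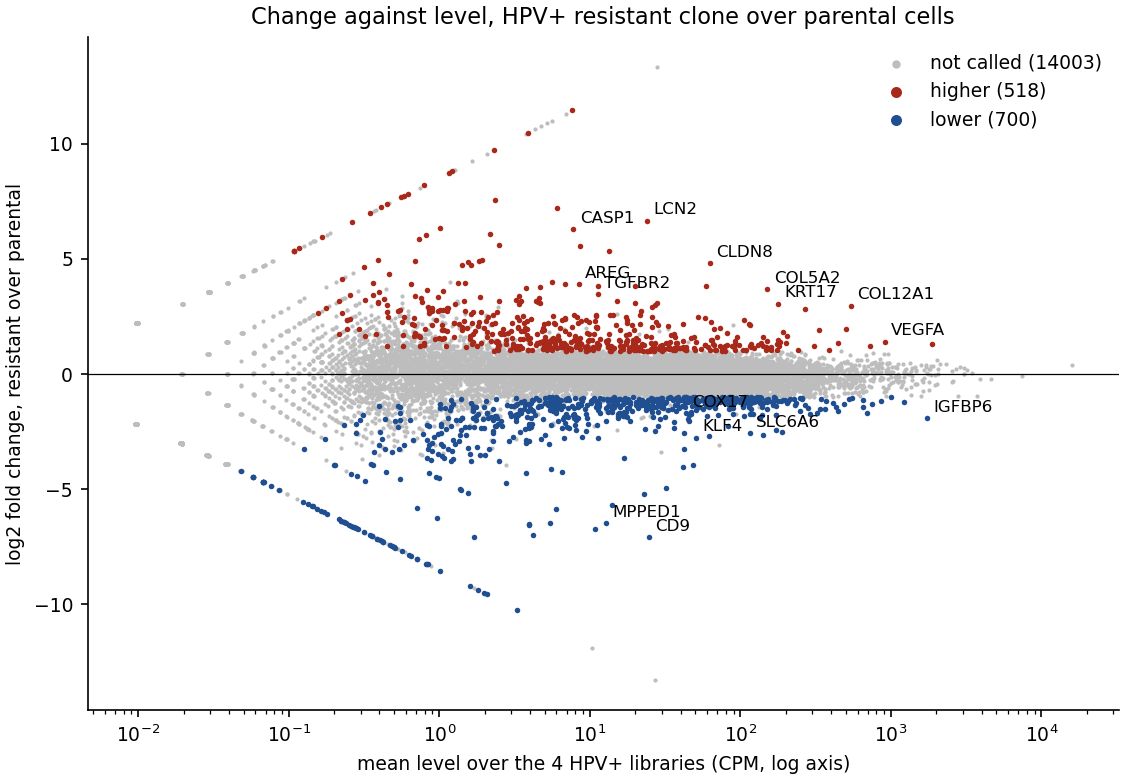
Change against level for the 15221 genes tested. The horizontal axis is the mean level over the 4 HPV+ libraries (CPM, log axis), the vertical axis the log2 fold change of the resistant clone over parental cells, gray points are genes that did not pass, red and blue points genes that were higher (518) and lower (700), and names mark genes described in the text. Of the 214 called genes beyond a log2 fold change of 3, 192 had a mean below 10 CPM, and the straight outer lines of points are genes with 0 counts in one group, whose fitted fold depends on a prior count and is no bound.

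The largest changes were of genes that were silent or nearly so on one side. Where 2 pairs of levels are joined by against, the first pair is parental libraries 1 and 2 and the second resistant libraries 1 and 2. LSAMP, a GPI-anchored adhesion protein best known from neurons, had 0 counts in both parental libraries and 2.18 and 2.44 CPM in the clone, at least 39.99-fold higher taking 3 counts as the floor of a group. KLHDC7B, a kelch repeat protein, went from 0 counts to 4.0 and 5.15 CPM. SERPINB3, a clade B serpin of squamous epithelium, had 0 and 0.0378 against 5.87 and 3.53 CPM, higher by 243 times (95% interval 43.2 to 9640), and FDCSP, a small secreted protein, was higher by 73.9 times (95% interval 25 to 361). Each of these was undetected or nearly so in parental cells and present in both libraries of the clone. CASP1, the inflammatory caspase that cleaves interleukin 1 beta, lies on chromosome 11 from 105025397 to 105035250 of GRCh38 and had 0.118 and 0.264 CPM in the parental libraries and 18.8 and 11.9 CPM in the resistant libraries (log2 fold change 6.28, standard error 0.39, adjusted p = 2.2e-05), although only 13 of its 22 annotated transcripts were in the files. LCN2, the iron-binding lipocalin, had 0.354 and 0.566 against 32.8 and 61.5 CPM (log2 fold change 6.66, standard error 0.71, adjusted p = 0.00147), and HKDC1, of the hexokinase family, 0.118 and 0.0378 against 6.54 and 17.6 CPM. LY6E was listed at 0 counts in parental cells and at 15 and 15.4 CPM in the clone, but the files held 1 of its 15 annotated transcripts, so its level is uncertain.

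In the other direction, TP53I11 (named for its induction by p53), THSD7A, a membrane protein with thrombospondin repeats, PRLR, the prolactin receptor, and SHISA3, an endoplasmic reticulum protein known to restrain Wnt and FGF receptors, had few or no counts left in the clone. TP53I11 had 3.1 and 3.62 against 0.0396 and 0 CPM, lower by 172 times (95% interval 30.5 to 6835), and THSD7A had 7.11 and 9.48 against 0.119 and 0 CPM, lower by 142 times (95% interval 48.1 to 689). SHISA3 had 1.73 and 2.34 CPM in parental cells and 0 counts in the clone, at least 34.6-fold lower. The muscle intermediate filament protein SYNC (syncoilin), the caveola protein CAVIN3 and MPPED1, a metallophosphoesterase, fell by more than 8 times as well. MPPED1 lies on chromosome 22 from 43411196 to 43507848 and had 25.8 and 24.6 against 0.397 and 0.155 CPM (log2 fold change −6.49, standard error 0.48, adjusted p = 5.97e-05). H4C11, a histone gene, was at 6.29 and 6.8 CPM in parental cells and 0 in the clone, and the replication-dependent histone genes carry near-identical copies and mostly lack polyA tails, so its value is uncertain. YTHDC1 (1 of its 7 transcripts in the files) also had 0 counts in the clone and is uncertain.

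The smallest p-values picked out genes with close replicates. CD9, a tetraspanin, was at 48.3 and 49.4 CPM in parental cells and at 0.238 and 0.465 CPM in the clone. CLDN8, a tight junction claudin on chromosome 21 from 30214006 to 30216097, was at 4.36 and 4.34 against 127 and 116 CPM (log2 fold change 4.80, standard error 0.18, adjusted p = 1.02e-05), and AP1M2, the epithelial subunit of a clathrin adaptor, at 0.55 and 0.755 against 9.48 and 11.7 CPM (log2 fold change 4.0, standard error 0.24, adjusted p = 1.77e-05). AMIGO2, an adhesion protein of the cell surface, rose by 3.10 on the log2 scale. Lower with small p were the taurine transporter SLC6A6 at 194 and 202 against 37 and 29.9 CPM (log2 fold change −2.57, standard error 0.15, adjusted p = 1.77e-05), the melanosome and lysosome glycoprotein GPNMB at 68.3 and 84.4 against 7.57 and 8.41 CPM (log2 fold change −3.25, standard error 0.19, adjusted p = 1.77e-05), and the ephrin receptor EPHB3 at 214 and 209.9 against 59.8 and 52.4 CPM (log2 fold change −1.92, standard error 0.14, adjusted p = 5.59e-05). KRT13, a keratin of suprabasal mucosa, fell by 4.95 on the log2 scale and KRT10, of cornifying epithelium, by 2.52, while KRT17 rose by 3.06. The groups did not overlap in CPM for any of the 1218 calls. A call makes such separation likely, and its share over all genes tested was not counted, so it is no further support. Genes picked for small p have close libraries within a group, so this closeness is no further support.

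Among abundant genes the largest level that changed was IGFBP6, a binding protein with preference for IGF2, at 2912 and 2564 against 807 and 629 CPM (log2 fold change −1.93, standard error 0.28, adjusted p = 0.00215). The nuclear lamin gene LMNA, the small heat shock protein gene HSPB1, ANXA2, which binds membranes in the presence of calcium, the actin-binding TAGLN2 and the hemidesmosome collagen COL17A1 fell too, with log2 fold changes between −1.70 and −1.19. LMNA was at 1034 and 1102 against 343 and 313 CPM. VEGFA, the main angiogenic growth factor, was at 513 and 483 against 1094 and 1549 CPM (log2 fold change 1.41, standard error 0.20, adjusted p = 0.00146). Also among the abundant genes that rose were COL12A1, a collagen that coats fibrils, at 119 and 126 against 1081 and 843 CPM, RBCK1 (HOIL-1), a part of the linear ubiquitin ligase, at 199.6 and 215 against 712 and 895 CPM, and KRT18 at 391 and 493 against 1071 and 956 CPM. RBCK1 had 70.0% of its annotated transcripts in the files. In LMNA, VEGFA and RBCK1 the lowest library of one group was well above the highest of the other.

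**Figure D2:**
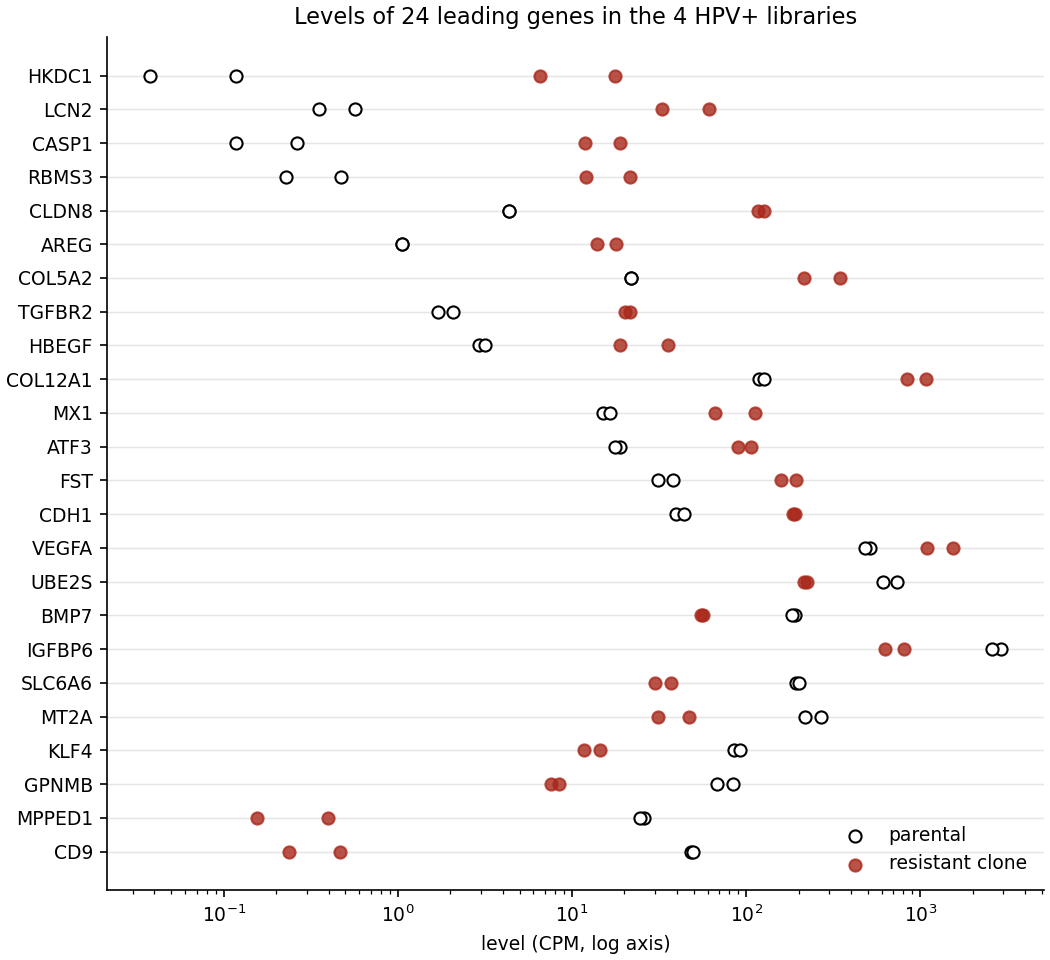
Levels of 24 leading genes in each of the 4 HPV+ libraries. The horizontal axis is CPM on a log axis, open circles are the 2 parental and filled circles the 2 resistant libraries, and the genes are ordered by their log2 fold change with higher genes on top. In each row both filled circles lie on the same side of both open ones. The genes were picked among calls, so this is no further support.

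Genes that handle cisplatin itself passed in both directions. Of 21 genes of platinum uptake and copper transport tested, 1 was higher and 2 lower (14.3% called, against 8.0% of all genes), with a list median of 0.11. SLC31A1 (CTR1), the main copper importer, had 81.6 and 88.7 CPM in the parental libraries and 113 and 112 CPM in the resistant libraries and did not pass (adjusted p = 0.076), nor did the anion channel genes LRRC8A (log2 fold change −0.07, adjusted p = 0.764) and LRRC8D (0.13, adjusted p = 0.597). COX17, the copper chaperone of mitochondria, fell, at 67.7 and 65.7 against 21.9 and 19.1 CPM (log2 fold change −1.70, standard error 0.21, adjusted p = 0.000736). The efflux ATPase gene ATP7B, at 3.14 and 2.87 against 5.83 and 7.87 CPM, passed with a log2 fold change of 1.19 (adjusted p = 0.0211) and SLC47A2 (MATE2), an exporter of organic cations, with −1.10, but neither was a repeated call. With any 1 of the 4 libraries left out, 0 to 2 genes were higher and 1 or 2 lower. Of 5 metallothionein genes tested, MT2A was lower, at 217 and 269 against 46.7 and 31.4 CPM (log2 fold change −2.64, standard error 0.23, adjusted p = 0.000115), and 0 were higher by edgeR or DESeq2 or at an unadjusted p under 0.05. MT1X had 57 and 81.8 against 42.8 and 32 CPM, with an adjusted p of 0.0163 and a log2 fold change of −0.89, inside the fold threshold.

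Of 59 genes of glutathione and NRF2, the oxidative stress regulator, 3 were higher and 3 lower (10.2% called, against 8.0% of all genes), with a median of 0.007. AKR1C3, an aldo-keto reductase and NRF2 target, rose from 6.01 and 4.53 CPM to 33.4 and 25.3 CPM (log2 fold change 2.48, standard error 0.20, adjusted p = 8.89e-05), and GSTO1, an omega class glutathione transferase, fell from 57.4 and 48.9 CPM to 25.4 and 21.9 CPM. The other calls, ME1 and CHAC1 higher and GSTZ1 and ALDH3A1 lower, were not repeated, and with any 1 of the 4 libraries left out 2 to 5 genes were higher (5 without resistant library 2) and 1 to 4 lower (1 without resistant library 2). The catalytic and modifier subunits of glutamate cysteine ligase, GCLC and GCLM, had log2 fold changes of 0.29 (adjusted p = 0.264) and 0.65 (adjusted p = 0.0306), and SLC7A11, which imports cystine for glutathione synthesis, 0.43 (adjusted p = 0.0953). Of 32 ABC transporters, 2 were lower (ABCA10 and ABCA3, neither repeated) and 0 higher (edgeR and DESeq2), 6.25% called. Of the 32, 3 had a higher value and an unadjusted p below 0.05. ABCC2, an exporter of cisplatin conjugates with glutathione, lay at 0.118 and 0.0755 against 0.159 and 0.775 CPM, and its 2 resistant libraries lay apart (adjusted p = 0.114).

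DNA repair genes stayed inside the thresholds with few exceptions. Among 30 genes of nucleotide excision repair, 58 of the Fanconi anemia pathway and homologous recombination and 18 of translesion synthesis, 0 were called by edgeR or DESeq2, while 3, 7 and 4 had an unadjusted p under 0.05 and a higher value and 5, 5 and 1 had such a p and a lower value. ERCC1, the partner of the XPF nuclease, was at 92.9 and 80.1 against 64.3 and 66.9 CPM, XPC, which recognises lesions, at 61.2 and 61.9 against 63 and 66.1 CPM, and BRCA1 at 73.4 and 79.97 against 98.3 and 96.5 CPM, with adjusted p of 0.113, 0.762 and 0.127. With 1 library left out, nucleotide excision repair gained 1 lower gene (without resistant library 1) and the Fanconi anemia list 1 (without parental library 2). The log2 fold changes of the 3 lists ran from −1.46 to 0.88. Of 32 genes of mismatch and base excision repair, 1 was lower (3.12%), the glycosylase gene MPG. Of 19 genes of end joining, 1 was lower (5.26%, against 4.6% of all genes), the histone gene H2AX at 217 and 231 against 119 and 102 CPM. Neither was a repeated call. MPG lies on chromosome 16 where neighbouring genes were lower too (the median of up to 15 tested genes on either side was −0.47).

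R-loops are hybrids of RNA with template DNA, and their regulators were the subject of the study. Of 53 R-loop helicases, nucleases and RNA export genes tested, 3 (5.66%, against 4.6% of all genes) were lower and 0 higher (edgeR and DESeq2), and 9 higher and 8 lower values had an unadjusted p below 0.05. ALYREF, an adaptor for mRNA export, lies on chromosome 17 from 81887835 to 81891586 and fell from 203 and 194 CPM to 92.1 and 75.7 CPM (log2 fold change −1.24, standard error 0.16, adjusted p = 0.000881). THOC6, of the same export complex, and RNASEH2C, a subunit of ribonuclease H2, passed with log2 fold changes of −1.13 and −1.01 and were not repeated calls. With any 1 of the 4 libraries left out, 1 or 2 genes of the list were lower. USP11, a deubiquitinase that the study followed, had 47.1 and 51.9 CPM in the parental libraries and 57.9 and 49.6 CPM in the resistant libraries, and its groups overlapped (log2 fold change 0.12, standard error 0.15, adjusted p = 0.625).

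Of 51 p53 target genes, 3 were higher and 5 lower (3 lower without parental library 1). Calls made up 15.7% of the list, against 8.0% of all genes. CDKN1A (p21) had 222 and 221 against 224 and 265 CPM (adjusted p = 0.669) and MDM2 104 and 105 against 136 and 141 CPM (adjusted p = 0.0619). PLK3, a stress kinase of the polo family, and FAM210B, a mitochondrial protein, rose by 1.44 and 1.21 on the log2 scale. TP73, the p53 paralog, fell from 61.1 and 60.6 CPM to 26.1 and 24.1 CPM (log2 fold change −1.28, standard error 0.14, adjusted p = 0.000413), and AIFM2 (FSP1), which guards lipids against peroxidation, from 28.1 and 28.4 CPM to 11.4 and 12.8 CPM (log2 fold change −1.23, standard error 0.17, adjusted p = 0.00135). Of 46 regulators of apoptosis, 2 were higher and 2 lower, 8.7% in all and near the 8.0% of all genes. The inflammatory caspases CASP1 and CASP4 lie in the same cluster on chromosome 11 and both rose, CASP4 from 3.34 and 3.96 CPM to 21.4 and 14.3 CPM (log2 fold change 2.29, standard error 0.22, adjusted p = 0.000243). BIRC5 (survivin), which is also a mitosis gene, fell from 204 and 206 CPM to 96.5 and 89 CPM, and CASP10 passed without a repeated call. Genes of the BCL2 family were not called, among them BAX at 76.8 and 69.8 against 39.9 and 45.1 CPM (log2 fold change −0.79, adjusted p = 0.0145) and BCL2L1 (−0.26, adjusted p = 0.296). Of 23 genes of the RB pathway and CDK inhibitors, 4 were lower by edgeR (17.4%, against 4.6% of all genes) and 0 higher (edgeR and DESeq2). Of the 23, 1 had a higher value and an unadjusted p below 0.05. CDKN2C (p18), an inhibitor of CDK4 and CDK6, fell from 272 and 261 CPM to 96.1 and 61.1 CPM (log2 fold change −1.76, standard error 0.22, adjusted p = 0.000828). CCND1, cyclin D1, was at 113 and 109.7 against 59.7 and 33.8 CPM (log2 fold change −1.25, standard error 0.25, adjusted p = 0.0088) and was not a repeated call. The number of lower genes in this list was 1 or 2 when any 1 of the 4 libraries was left out.

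Genes of mitosis and cytokinesis passed in one direction. Of 119 tested, 16 (13.4%) were lower and 0 higher by edgeR, 11 of the 16 were repeated calls, and DESeq2 gave 16 lower and 1 higher. Over all genes tested, 4.6% were lower and 3.4% higher. At an unadjusted p under 0.05, 74 of the mitosis genes were lower and 4 higher, and the list's median log2 fold change was −0.49. The median was −0.44 with upper-quartile factors. The number of lower genes was 11 with those factors and 13 to 16 without any 1 of the 4 libraries. UBE2S, the ubiquitin-conjugating enzyme of the anaphase-promoting complex, had 738 and 614 against 215 and 224 CPM (log2 fold change −1.62, standard error 0.25, adjusted p = 0.00271). CDC20, the activator of that complex, had 238 and 253 against 109 and 112 CPM (log2 fold change −1.16, standard error 0.18, adjusted p = 0.00227). AURKA, the kinase of spindle poles, had 115 and 119.5 against 52.3 and 53.1 CPM, and CCNF, a cyclin that acts in a ubiquitin ligase, 106 and 112 against 49.96 and 48.5 CPM. CCNF lies on chromosome 16 among neighbours that were lower too (median −0.53). BIRC5 and INCENP, partners in the chromosomal passenger complex, fell by 1.14 and 1.04 on the log2 scale, and CENPA, the histone of centromeres, by 1.14. Apart from that of UBE2S, these changes were close in size to the fold threshold. MKI67, the proliferation marker, was not called, at 441 and 519.5 against 412 and 384 CPM (adjusted p = 0.462), nor was TOP2A (−0.51, adjusted p = 0.0687) or CCNB1 (−0.79, adjusted p = 0.00462, inside the fold threshold). Of 69 E2F-driven genes of DNA replication, 0 were called in either direction (edgeR and DESeq2), while 5 higher and 13 lower values had an unadjusted p below 0.05, and the median was −0.10. Without resistant library 1, 1 was lower.

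Promoters of mitotic genes are known for a CHR element (TTTGAA), bound by the DREAM and MuvB complexes, and for CCAAT boxes, bound by NF-Y. Both were searched on both strands in the 250 bases before the transcription start, in RefSeq promoters of GRCh38.p14, and the motifs were chosen after the values were seen. TTTGAA was found in 13.32% of 35116 promoters, in 38 of the 96 mitosis genes with an entry and in 9 of the 13 that were lower and had one. CCAAT was found in 32.01% of promoters and 34.85% of tested genes, in 64 of the 96 and in 12 of the 13. The 150 bases before the start are shown for 3 lower genes that hold both motifs, with the motif letters of either strand in capitals. CDC20 lies at chr1:43358831-43358980, CENPA at chr2:26785906-26786055 and CCNF at chr16:2429297-2429446, all on the plus strand.
CDC20: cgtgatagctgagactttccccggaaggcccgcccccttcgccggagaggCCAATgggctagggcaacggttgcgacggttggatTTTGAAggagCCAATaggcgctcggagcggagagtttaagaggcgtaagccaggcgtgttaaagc
CENPA: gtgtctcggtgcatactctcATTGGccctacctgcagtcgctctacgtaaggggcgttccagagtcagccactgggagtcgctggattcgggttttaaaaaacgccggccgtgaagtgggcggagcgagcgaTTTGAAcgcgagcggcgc
CCNF: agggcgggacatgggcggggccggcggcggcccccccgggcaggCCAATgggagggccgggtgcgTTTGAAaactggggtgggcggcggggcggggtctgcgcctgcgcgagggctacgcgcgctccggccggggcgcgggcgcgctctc
In CDC20 and CCNF a CCAAT box stands before the CHR letters, and in CENPA it stands in the reverse orientation, as ATTGG.

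**Figure D3:**
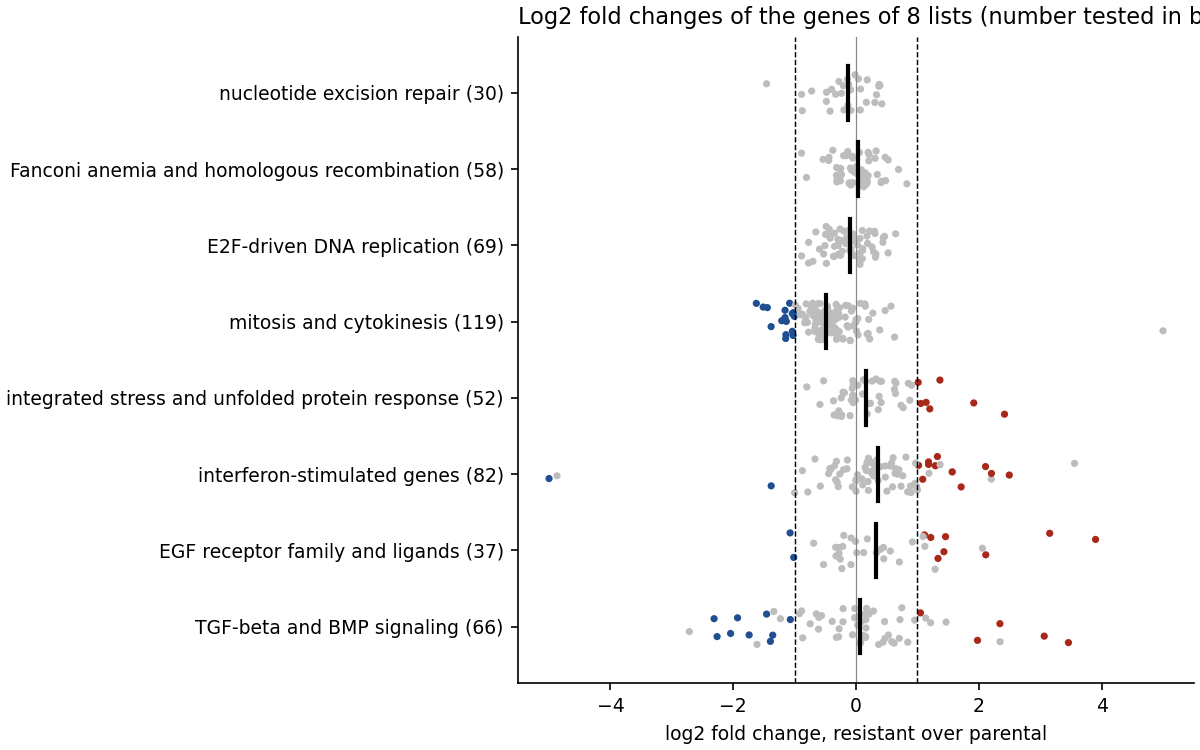
Log2 fold changes of single genes in 8 lists. Each point is 1 gene tested, colored points passed the test (red higher, blue lower), the black bar is the list's median and dashed lines mark the fold threshold of 1 in either direction; points beyond 5 are drawn at the edge. The mitosis list is centered below 0 with a median of −0.49, while the lists of DNA repair and E2F genes lie around 0 with no colored points.

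The integrated stress response is a program in which phosphorylated eIF2 alpha raises translation of ATF4, which then induces genes of amino acid supply and cell death. Of 52 of its genes and those of the unfolded protein response, 7 were higher and 0 lower (edgeR and DESeq2). The share called was 13.5%, against 8.0% of all genes, and 17 higher values and 1 lower had an unadjusted p below 0.05. ATF3, a transcription factor of the same family, had 18.9 and 17.7 against 89.5 and 106 CPM (log2 fold change 2.42, standard error 0.20, adjusted p = 9.02e-05). TRIB3, a pseudokinase induced by ATF4, had 229 and 268 against 612 and 667 CPM (log2 fold change 1.37, standard error 0.21, adjusted p = 0.00223), and DDIT4 (REDD1), an inhibitor of mTORC1, 136 and 143 against 404 and 647 CPM (log2 fold change 1.92, standard error 0.22, adjusted p = 0.000469). DDIT3 (CHOP), CEBPG, PPP1R15A (GADD34) and CHAC1 passed with log2 fold changes of 1.01, 1.05, 1.20 and 1.14, without repeated calls. PPP1R15A had 2 of its 5 annotated transcripts quantified. The number of higher genes was 4 without parental library 1 or without resistant library 2 and 8 without resistant library 1. ATF4 itself was at 639.6 and 614 against 594 and 619 CPM (adjusted p = 0.922). In the 250 bases before the start, TGATGNAA, the core of the C/EBP-ATF response element, was found in 3.14% of all promoters and 1.39% of tested genes with an entry. It was found in 5 of 47 genes of the list and in 2 of the 7 that were higher, ATF3 and CHAC1. Bases 240 to 140 before their starts are shown with the letters of the motif in capitals, at chr1:212565167-212565267 and chr15:40953231-40953331 on the plus strand.
ATF3: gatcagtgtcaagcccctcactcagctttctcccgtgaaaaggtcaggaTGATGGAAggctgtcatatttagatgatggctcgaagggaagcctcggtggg
CHAC1: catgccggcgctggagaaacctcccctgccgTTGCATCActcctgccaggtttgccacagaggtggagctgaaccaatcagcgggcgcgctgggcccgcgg
The motif reads forward in ATF3 and as its reverse complement in CHAC1.

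Interferon-stimulated genes encode antiviral effectors and sensors and are transcribed through the ISGF3 complex. Of 82 tested, 11 were higher and 2 lower (15.9% in all, against 8.0% of all genes). At an unadjusted p below 0.05, 31 values were higher and 7 lower, and the median was 0.35. Repeated calls numbered 5 higher and 1 lower. MX1, a GTPase that blocks viruses, lies on chromosome 21 from 41420020 to 41470071, in a region where neighbours were higher too (median 0.52), and had 15.1 and 16.5 against 112 and 66.3 CPM (log2 fold change 2.5, standard error 0.25, adjusted p = 0.000336). DDX60, a helicase that aids RNA sensing, had 7.62 and 8.65 against 32.4 and 21 CPM (log2 fold change 1.71, standard error 0.22, adjusted p = 0.000988), and RIGI, the sensor itself, 5.74 and 7.02 against 17 and 15 CPM. OASL and SAMD9 rose by 1.29 and 1.56 on the log2 scale. GBP2, a guanylate-binding protein, was lower, at 0.825 and 0.868 CPM against 0 counts in the clone. ISG15 passed without a repeated call (log2 fold change 1.18, standard error 0.30, adjusted p = 0.0275). The 2 resistant libraries lay apart for MX1 and DDX60, and the number of higher genes was 19 without resistant library 2, 6 without resistant library 1, and 5 and 7 without parental libraries 1 and 2. It was 15 with upper-quartile factors and 17 with an offset for transcript length.

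A pair of GAAA with any 2 bases between them, the core of the interferon-stimulated response element, was found in 3.02% of all promoters. Among tested genes with an entry, counted with 1 promoter each, it was found in 2.32%. It was found in 28 of 59 genes of the list with an entry and in 5 of the 9 called in either direction. For DDX60 and SAMD9, both on the minus strand, the 150 bases before the start are shown 5′ to 3′ on the strand of the gene, from chr4:168318753-168318902 and chr7:93117980-93118129, with the motif in capitals.
DDX60: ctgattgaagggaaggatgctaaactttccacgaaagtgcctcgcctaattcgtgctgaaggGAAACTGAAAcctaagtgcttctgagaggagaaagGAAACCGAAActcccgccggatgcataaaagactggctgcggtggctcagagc
SAMD9: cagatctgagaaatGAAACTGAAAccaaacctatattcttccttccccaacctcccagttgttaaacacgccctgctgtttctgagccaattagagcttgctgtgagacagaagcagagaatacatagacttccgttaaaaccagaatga
DDX60 holds the motif at 2 places and SAMD9 at 1.

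Of 75 genes of NF-kappaB, cytokines and chemokines, 12 were higher and 6 lower, but only 3 of these were repeated calls. Among all genes tested, 3.4% were higher and 4.6% lower, 8.0% in all. LCN2, described above, and IL20RB, a receptor subunit for cytokines of the IL-20 group, rose, the latter from 50.6 and 55.4 CPM to 127 and 135 CPM (log2 fold change 1.30, standard error 0.15, adjusted p = 0.000629). NFKBIA, the inhibitor of NF-kappaB and one of its targets, fell from 27.7 and 29.6 CPM to 13.7 and 13.5 CPM (log2 fold change −1.07, standard error 0.14, adjusted p = 0.00119), with 47.6% of its annotated transcripts in the files. The number of higher genes was 4 without either parental library, 11 without resistant library 1 and 5 without resistant library 2, and DESeq2 gave 6 higher and 6 lower. Of 42 genes of antigen presentation, 1 was higher and 4 lower (11.9% called). CD274 (PD-L1), the checkpoint ligand, rose from 0.275 and 0.302 CPM to 3.57 and 1.71 CPM (log2 fold change 3.17, standard error 0.51, adjusted p = 0.00274), while CD276 (B7-H3) fell from 139 and 142 CPM to 59.7 and 59.6 CPM (log2 fold change −1.24, standard error 0.14, adjusted p = 0.000464) and TAPBPL, an editor of MHC class I peptides, from 6.92 and 6.3 CPM to 1.75 and 0.891 CPM.

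Ligands and receptors of growth factors changed in both directions. Of 37 genes of the EGF receptor family and its ligands, 8 were higher and 2 lower, against 3.4% and 4.6% of all genes. Repeated calls numbered 4 and 0, and the list's median was 0.33. The ligand gene AREG (amphiregulin), on chromosome 4 from 74445136 to 74455005, had 1.06 and 1.06 CPM in the parental libraries and 14 and 17.8 CPM in the resistant libraries (log2 fold change 3.90, standard error 0.20, adjusted p = 1.02e-05). HBEGF, a heparin-binding ligand, had 2.91 and 3.17 against 18.8 and 35.4 CPM (log2 fold change 3.15, standard error 0.32, adjusted p = 0.000285), and TGFA, a ligand too, passed at 1.12 without a repeated call. Both resistant libraries stood many times above both parental ones for AREG and HBEGF. Per transcript length, as the deposited TPM summed over transcripts and averaged over the 2 libraries of a group, AREG went from 1.17 to 19.6 TPM and HBEGF from 1.56 to 15.8 TPM. Of the receptors, ERBB3, which lacks an active kinase, rose from 5.42 and 5.7 CPM to 23.7 and 24.5 CPM (log2 fold change 2.11, standard error 0.18, adjusted p = 0.000109), while EGFR was at 671 and 721 against 558 and 627 CPM (adjusted p = 0.441) and ERBB2 at 66.4 and 63.4 against 61.8 and 60.9 CPM (adjusted p = 0.732). Feedback inhibitors of the pathway were among the higher genes, with ERRFI1 (MIG6) at 1.33 as a repeated call and SPRY2 and SPRY4 without one, and ERBB4 and NRG1 were lower without repeated calls. The number of higher genes was 5 to 7 when any 1 of the 4 libraries was left out.

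Of 53 genes of FGF, IGF, PDGF, VEGF and HGF signaling, 9 were higher and 9 lower, with 5 and 6 repeated calls. The shares over all genes tested were 3.4% higher and 4.6% lower. HGF and its receptor MET both rose. HGF was at 6.17 and 5.51 against 27 and 32.3 CPM (log2 fold change 2.34, standard error 0.29, adjusted p = 0.00115) and MET at 64.3 and 75.8 against 207 and 215 CPM (log2 fold change 1.59, standard error 0.18, adjusted p = 0.000451). AXL, a receptor tyrosine kinase of the TAM family, rose from 1.1 and 0.566 CPM to 9.79 and 6.82 CPM (log2 fold change 3.31, standard error 0.46, adjusted p = 0.003). Lower were FGFR3, an FGF receptor of epithelia, at 233 and 200.4 against 68.9 and 55.5 CPM (log2 fold change −1.80, standard error 0.20, adjusted p = 0.000419), the semaphorin and VEGF coreceptor NRP1 at 472 and 519 against 175 and 129 CPM (log2 fold change −1.71, standard error 0.19, adjusted p = 0.000452) and the KIT ligand KITLG at 384 and 442 against 164 and 134 CPM (log2 fold change −1.47, standard error 0.21, adjusted p = 0.00181). The other FGF receptor of epithelia, FGFR2, fell too (−2.20), at levels of 1.45 and 1.28 CPM and 0.357 and 0.233 CPM.

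TGF-beta ligands signal through SMAD2 and SMAD3 and BMP ligands through SMAD1, SMAD5 and SMAD9. Of 66 genes of these pathways, 5 were higher and 9 lower, with 5 and 7 repeated calls. The share called was 21.2%, against 8.0% of all genes. TGFBR2, the type II receptor of TGF-beta, lies on chromosome 3 from 30606601 to 30694142 and had 1.69 and 2.08 CPM in the parental libraries and 21.5 and 20.03 CPM in the resistant libraries (log2 fold change 3.46, standard error 0.24, adjusted p = 3.73e-05). The ligand TGFB2 rose from 28.3 and 30.6 CPM to 101 and 132 CPM (log2 fold change 1.98, standard error 0.24, adjusted p = 0.000884), and so did PMEPA1 and SKIL, which are induced by TGF-beta and dampen it, by 3.06 and 1.05 on the log2 scale. FST (follistatin), a secreted trap for activins and some BMPs, was at 31.2 and 38.2 against 193 and 159 CPM (log2 fold change 2.34, standard error 0.18, adjusted p = 6.89e-05). BMP7 and BMP2 fell, from 192 and 183 CPM to 56.8 and 55.2 CPM (log2 fold change −1.74, standard error 0.13, adjusted p = 6.52e-05) and from 76.8 and 71.8 CPM to 29.5 and 28.4 CPM (log2 fold change −1.36, standard error 0.18, adjusted p = 0.000995). SMAD6, an inhibitory SMAD induced by BMPs, and SMAD3 fell by 1.40 and 1.07 on the log2 scale. ID1, a BMP target, had 196 and 218 against 116 and 111 CPM and stayed inside the fold threshold (−0.87, adjusted p = 0.0059).

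The Hippo pathway limits the coactivators YAP and TAZ, which act with TEAD factors. Of 46 of its genes and YAP targets, 6 were higher and 3 lower, and all 9 were repeated calls. Calls made up 19.6% of the list, against 8.0% of all genes. AMOTL2, a binder and target of YAP, had 98 and 103 against 233 and 266 CPM (log2 fold change 1.32, standard error 0.17, adjusted p = 0.00108). F3 (tissue factor), which starts blood coagulation, was at 7.94 and 7.97 against 46.6 and 41 CPM (log2 fold change 2.46, standard error 0.21, adjusted p = 0.000116) and RBMS3, an RNA-binding protein, at 0.472 and 0.227 against 21.4 and 12 CPM (log2 fold change 5.57, standard error 0.46, adjusted p = 9.98e-05). PTPN14, TGFB2 and AXL were the other higher genes. TEAD2 fell from 134 and 114 CPM to 45.3 and 40.4 CPM (log2 fold change −1.53, standard error 0.19, adjusted p = 0.000736), with GADD45B and FOXF2. CCN2, a YAP target too, lay at 0.983 and 0.717 against 0.793 and 0.504 CPM and did not pass (adjusted p = 0.52). Of 39 Notch genes, 10.3% were called. Of these, 1 was higher (NRARP, a target that limits the pathway, at 1.88) and 3 lower, among them the ligand JAG2 at −1.20 and LFNG, a glycosyltransferase that modifies Notch, at −2.41. Neighbours of LFNG on chromosome 7 were lower too, with a median of −0.72.

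Of 25 cadherins and regulators of epithelial to mesenchymal transition, 4 were higher and 5 lower, with 3 and 2 repeated calls and 2 or 3 lower when any 1 of the 4 libraries was left out. The share called was 36.0%, against 8.0% of all genes. CDH1, E-cadherin, lies on chromosome 16 from 68737292 to 68835537 and had 39.3 and 43.9 CPM in the parental libraries and 186 and 189.7 CPM in the resistant libraries (log2 fold change 2.18, standard error 0.17, adjusted p = 7.63e-05). CDH3, P-cadherin, which lies close to it, fell from 25.7 and 25.9 CPM to 7.57 and 7.01 CPM (log2 fold change −1.82, standard error 0.17, adjusted p = 0.000151). The mesenchymal filament gene VIM fell from 266 and 320.4 CPM to 67.4 and 40.3 CPM (log2 fold change −2.44, standard error 0.25, adjusted p = 0.000398), and ESRP1, a splicing factor of epithelial cells, rose from 0.472 and 0.566 CPM to 4.68 and 9.42 CPM (log2 fold change 3.75, standard error 0.39, adjusted p = 0.000417). ZEB1 and TWIST1, which repress CDH1, passed as lower without repeated calls. SNAI2 (Slug), a repressor of CDH1 that basal keratinocytes also express, rose from 49.2 and 46.6 CPM to 105 and 116 CPM (log2 fold change 1.20, standard error 0.15, adjusted p = 0.000691), and CDH2, N-cadherin, was at 425 and 469 against 283 and 288 CPM (adjusted p = 0.0604). VIM and CDH1 moved in opposite directions, while ZEB1 and TWIST1 did not share a direction with SNAI2.

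Collagens, laminins and other matrix genes also went both ways. Of 41 collagen genes and enzymes, 6 were higher and 3 lower (22.0% called, against 8.0% of all genes). COL5A2, a fibrillar collagen of type V, on chromosome 2 from 189031898 to 189225312, had 21.9 and 21.7 CPM in the parental libraries and 346 and 215 CPM in the resistant libraries (log2 fold change 3.69, standard error 0.23, adjusted p = 2.46e-05). COL8A2 and COL6A2 rose by 3.17 and 1.29 on the log2 scale. Of 65 laminins and matrix glycoproteins, 7 were higher and 9 lower, with 3 and 6 repeated calls, and 4 were higher without parental library 1 or resistant library 1. Calls made up 24.6% of this list. Of laminin chains of the basement membrane under epithelia, LAMA3 passed at 1.25 without a repeated call and LAMB3, at 848 and 900.3 against 666 and 527 CPM, did not pass (adjusted p = 0.304). POSTN (periostin) and FBLN5 (fibulin 5) rose by 2.49 and 3.03 on the log2 scale, although 9 of the 16 annotated transcripts of FBLN5 were quantified. The small proteoglycan BGN (biglycan) fell from 43.5 and 48 CPM to 9.28 and 7.36 CPM (log2 fold change −2.46, standard error 0.25, adjusted p = 0.000281), and LUM (lumican) from 241 and 289.9 CPM to 91 and 65.8 CPM (log2 fold change −1.76, standard error 0.23, adjusted p = 0.00178). GPC1 and SDC1, heparan sulfate proteoglycans of the cell surface, were lower by 1.52 and 1.03. LUM and POSTN are also on the list of fibroblast markers, whose summed level is given above and was lowest in resistant library 2, and the part of such cells in these results was not tested.

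Genes of squamous differentiation other than keratins were mixed, with 29.6% called against 8.0% of all genes. Of 54 tested, 9 were higher and 7 lower, with 5 and 4 repeated calls and a median of 0.00. The higher genes numbered 5 without parental library 1 or resistant library 1. CSTA (cystatin A), a precursor of the cornified envelope, had 22.5 and 21.1 against 102 and 109 CPM (log2 fold change 2.28, standard error 0.31, adjusted p = 0.00226), DMKN (dermokine) 2.67 and 1.85 against 13.7 and 13.3 CPM (log2 fold change 2.58, standard error 0.23, adjusted p = 0.000141), and ZNF750, a transcription factor of terminal differentiation, 0.236 and 0.755 against 4.6 and 4.42 CPM (log2 fold change 3.17, standard error 0.47, adjusted p = 0.00205). KLF4, another transcription factor of barrier formation, went the other way, at 85.2 and 92.3 against 14.4 and 11.7 CPM (log2 fold change −2.77, standard error 0.18, adjusted p = 3.41e-05), and CNFN (cornifelin) at 3.69 and 3.7 against 0.912 and 1.16 CPM. In 116 transcription factors of epithelium and development, 15 were higher and 14 lower, against 3.4% and 4.6% of all genes. Repeated calls numbered 4 and 11, and the higher factors numbered 5 to 11 when any 1 of the 4 libraries was left out. GATA2 and ARNT2 fell by 2.05 and 1.86 on the log2 scale and PITX1, a homeobox factor of oral epithelium, by 1.22. RUNX1 rose from 95.8 and 92.7 CPM to 247 and 272 CPM (log2 fold change 1.46, standard error 0.18, adjusted p = 0.000899), with a median of 0.61 among its neighbours on chromosome 21, and SOX9 from 0.354 and 0.604 CPM to 2.5 and 1.94 CPM (log2 fold change 2.19, standard error 0.32, adjusted p = 0.00189). Of 27 genes of desmosomes and gap junctions, 18.5% were called. DSC2 and DSG1, desmosomal cadherins on chromosome 18, were higher by 1.55 and 2.28 on the log2 scale, and 3 connexins were lower, GJB6 and GJB5 by 1.23 and 1.55 as repeated calls and GJD3 without one. LYPD1, a GPI-anchored protein of the LY6 family, was at 94.9 and 86.8 against 7.3 and 4.3 CPM (log2 fold change −3.97, standard error 0.39, adjusted p = 0.000469).

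Of the metabolic lists outside the respiratory chain, 0 to 14% of genes were called in either direction, against 8.0% of all genes. Of 48 genes of glycolysis and the pentose phosphate pathway, 2 were higher (HKDC1, and SLC16A1 without a repeated call) and 1 lower, with a median of −0.26. Of 75 genes of fatty acid and lipid metabolism, 3 were higher and 5 lower (1 or 2 lower with any 1 of the 4 libraries left out), among them MLXIPL (ChREBP), which senses glucose, at 1.49 and 1.89 against 5.95 and 13.4 CPM (log2 fold change 2.52, standard error 0.38, adjusted p = 0.0022), and FABP4, a fatty acid carrier, at 55.7 and 63.4 against 28.8 and 25.7 CPM (log2 fold change −1.13, standard error 0.17, adjusted p = 0.00259). Of 48 genes of sterol synthesis and transport, 2 were higher and 3 lower (1 without parental library 1 and 5 without resistant library 2), with APOE at 1.06 and 1.13 against 5.63 and 5.62 CPM (log2 fold change 2.35, standard error 0.28, adjusted p = 0.000668). Of 43 hypoxia targets, 5 were higher and 1 lower, with VEGFA and DDIT4 already described, and 3 were higher without parental library 1. Of 46 proteasome genes, 3 were lower, including PSMB5, the subunit with chymotrypsin-like activity, at −1.02, and 0 higher (edgeR and DESeq2), and 3 had a higher value and an unadjusted p below 0.05. In 121 genes of ribosome biogenesis, 0 passed in either direction by edgeR and 1 in each by DESeq2.

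**Figure D4:**
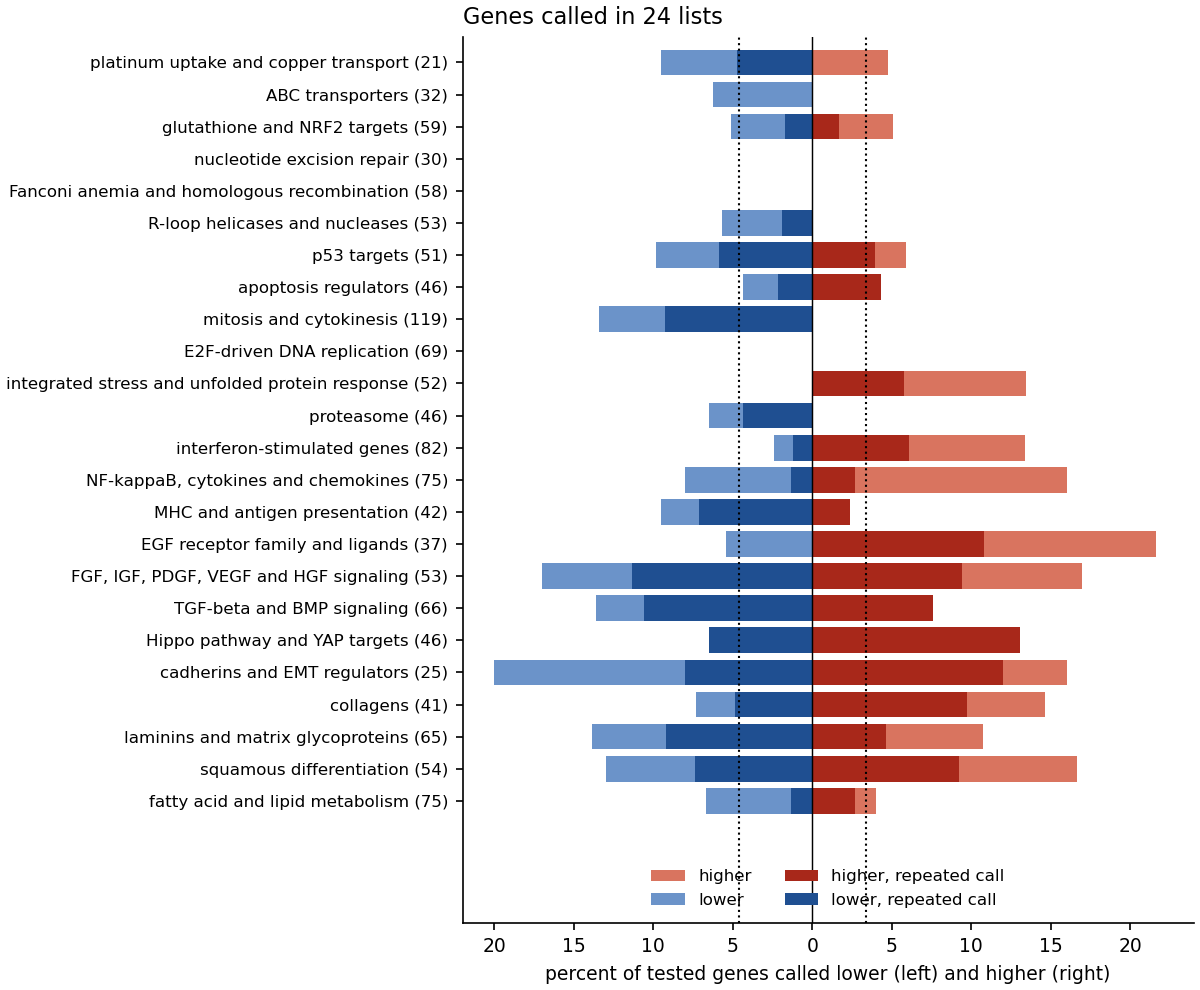
Share of genes called in 24 lists. Bars give the percent of tested genes of a list that were higher (red, to the right) or lower (blue, to the left) in the resistant clone, the number tested is given after the name, darker parts are repeated calls, and dotted lines mark the shares over all 15221 genes (3.4% and 4.6%). The mitosis, R-loop, proteasome and ABC transporter lists have bars to the left alone, the stress response list to the right alone, and the receptor and matrix lists in both directions.

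The direction of the calls differed between chromosomes, where over all genes tested 3.4% were higher and 4.6% lower. On chromosome 21, 12 of 152 genes tested were higher and 1 lower, with a median log2 fold change of 0.41, against 17 higher and 62 lower of 814 on chromosome 7 and 16 and 52 of 742 on chromosome 16. A running median over 31 neighbouring genes passed 0.6 in either direction in 7 stretches of at least 10 genes, which were chosen for these values and are described without a test. The longest, on chromosome 16 from 382097 to 2210905, held 71 genes with a median of −0.80, 63 of them below 0, and 13 were lower and 0 higher. On chromosome 7 from 42932376 to 45088969 were 33 genes with a median of −0.85 (9 lower, 0 higher), and from 1542235 to 2664802 another 14 with −0.80 (4 lower). Higher stretches were 25 genes on chromosome 14 from 88824153 to 93116320, with a median of 0.69 (6 higher, 0 lower), and 18 genes on chromosome 21 from 36320189 to 39515506, with 0.74 (3 higher) and all 18 above 0. In the HPV− line the same genes had medians of 0.18, −0.03, 0.05, 0.33 and −0.03, in the order given. A stretch of 14 genes in the histone cluster of chromosome 6 had a median of −0.85 (−0.40 in the HPV− line) and holds near-identical genes, and 13 genes on chromosome 11 from 64269830 to 64888296 had −0.66 (−0.305 in the HPV− line). Among called genes named above, the 30 neighbours of ABCA3, BGN, RNASEH2C and THSD7A also had medians below 0, at −0.58, −0.51, −0.49 and −0.52, and those of FBLN5 a median of 0.66. DNA was not measured.

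**Figure D5:**
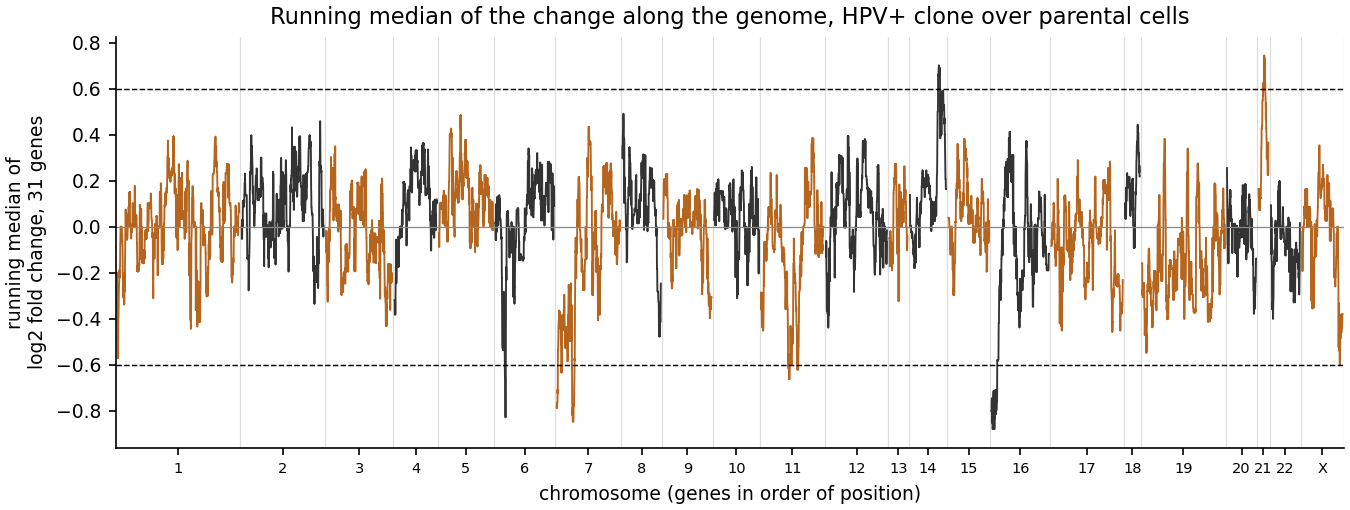
Running median of the log2 fold change over 31 neighbouring genes, for the HPV+ clone over its parental cells. The horizontal axis is gene order along chromosomes 1 to 22 and X (15 genes on either side of each point, within a chromosome), vertical lines separate chromosomes, and dashed lines mark the limits of 0.6 in either direction. The curve passes below −0.6 on chromosomes 6, 7, 11 and 16 and above 0.6 on chromosomes 14 and 21.

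The change with resistance was then compared with that in the HPV− line by testing the difference itself. Of the 15221 genes, 1787 (11.7%) differed, 787 toward a higher and 1000 toward a lower value in the HPV+ line (588 lower without HPV+ parental library 1), and 602 of the 1218 genes described here were among them. Each HPV status was 1 line with 1 resistant clone, and the lines also differed in the dose of selection. HPV status, line, clone and dose therefore cannot be told apart. AREG rose in the HPV+ clone and had a log2 fold change of −2.53 in the HPV− clone, a difference of 6.43 (adjusted p = 8.61e-07). FST, with −2.22 in the HPV− line, KRT17 with −2.63 and IL20RB with −3.14 differed in the same sense, by 4.56, 5.68 and 4.44. CD9 and KRT13 differed in the other sense, with −0.12 and 0.47 in the HPV− line, and so did TP73, with 2.31. CDH1, ATF3, TGFBR2, MET and HBEGF were also among the genes whose difference passed. DDIT4 (1.91 in the HPV− line) and COX17 (−1.45) passed in the same direction in both lines, with differences of 0.0075 (standard error 0.297) and −0.25 (standard error 0.287) that did not pass. The differences of LCN2 and HGF did not pass either, but their standard errors on the log2 scale were 1.43 and 1.01, and the change of HGF in the HPV− line did not pass (adjusted p = 0.197). For AURKA (−0.71 in the HPV− line) and UBE2S (−1.19) the adjusted p of the difference was 0.2 and 0.438, and that of LMNA passed in p (0.0338) and stayed inside the fold threshold, at −0.81. Among the lists, 14 of the 37 genes of the EGF receptor family and its ligands had a more positive change on the HPV+ side and 0 a more negative one, as had 22 and 5 of the 82 interferon-stimulated genes, 16 and 5 of the 54 genes of squamous differentiation and 7 and 0 of the 52 stress response genes. Of 121 ribosome biogenesis factors, with 0 called in the HPV+ line, 39 had a more positive difference and 0 a more negative one. Genes of sterol synthesis went the other way, with 1 more positive and 14 more negative of 48. Of the 119 mitosis genes, 3 changed more positively and 1 more negatively, and the list's median was −0.49 in the HPV+ and −0.45 in the HPV− line.

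At the level of single transcripts, 131 of 63647 tested were higher and 234 lower (0.573% in all), and the count was unstable, since 0 passed by edgeR when only the 4 HPV+ libraries were fitted and 6 to 60 higher and 2 to 127 lower when any 1 of the 8 libraries was left out. The deposited estimates carry no measure of how surely Salmon assigned reads between transcripts of a gene, and this uncertainty is not in the test. In 4 genes, HNRNPDL, NUSAP1, RPS3 and VEGFA, transcripts passed in opposite directions. In VEGFA, 2 transcripts with retained introns were higher and 1 coding transcript went from 14.4 and 19.8 CPM to 0, while the gene as a whole rose.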

How the data were processed

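RNA of the HPV+ line and its resistant clone, with that of the HPV− line and its clone, was sequenced in 2 libraries per group. The authors quantified transcripts with Salmon on GRCh38, and the deposited estimated counts and TPM are given per transcript with no uncertainty of assignment. The annotation version is not given in the sources used here. Of 187432 transcripts in the files, 172550 matched GENCODE 44 by identifier, and the other 14882 were left out. For 1816 (11.9%) of the 15221 genes tested, and 140 of the 1218 calls, some annotated transcripts were missing. Sums of the estimated counts over the transcripts of a gene were rounded to whole numbers, libraries were scaled with TMM, and gene coordinates are those of GENCODE 44.

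edgeR 4.0.16 (R 4.3.3; robust quasi-likelihood fit, filterByExpr) was fitted to all 8 libraries, which share one estimate of the spread, and a call needed a Benjamini-Hochberg adjusted p below 0.05 with a log2 fold change past 1. The same fit gave the difference between the lines, and single transcripts were fitted likewise. DESeq2 1.42.0, other scalings, filters, the replicate numbers as a block and the omission of each library were tried as alternatives. Intervals of ratios and floors (3 counts over a group) are at the 95% level and cover counting error only.

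The gene lists and the comparison were chosen with earlier results of these data known. The genes named were those with repeated calls and a mean of at least 1 CPM that had the 12 largest fold changes, the 8 smallest p-values or the 6 highest levels in each direction, up to 4 in each direction per list, genes of known role in a list, a gene the study followed, those whose lines differed with the smallest p, and those with transcripts called in opposite directions. Those picked by fold change, p-value, level or rank in a list also had no overlap between the groups in CPM. Genes of the Y chromosome and of X inactivation were left out. Values of some other genes are not reported here. Keratin, Wnt and respiratory chain genes are named only where they were among the largest, surest or most abundant changes. Promoter and motif searches were added after the values were seen, on the promoters of RefSeq.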

Additional observations from a re-analysis of the deposited data

Results flagged for a closer look

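The change with resistance differed between the HPV+ and the HPV− line, by the test of the difference itself in edgeR, for 1787 genes, 787 with a more positive and 1000 with a more negative change in the HPV+ line. Among the genes named above, 120 were of this kind, and their differences (log2 fold change in the HPV+ line minus that in the HPV− line) follow, positive values meaning a higher change in the HPV+ line. Some of these genes did not pass in the HPV+ line by itself. The groups held 2 libraries each, so single libraries that stood apart were not searched for.

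In the EGF receptor family and its ligands the differences that passed were all positive, at 6.43 for AREG, 5.15 for HBEGF, 2.26 for TGFA, 2.17 for SPRY4, 2.05 for ERBB3, 1.66 for ERRFI1 and 1.29 for NRG1. NRG1 was lower in both lines, with −2.31 in the HPV− line. Other growth factor genes went both ways. AXL differed by 3.94, VEGFA by 1.95 and MET by 1.70, while FGFR3 differed by −2.28, IGFBP6 by −2.18, NRP1 by −2.15, FGFR2 by −1.48 and KITLG by −1.26. In TGF-beta and BMP signaling, FST differed by 4.56, PMEPA1 by 4.20, TGFBR2 by 3.20, BMP2 by 1.97, TGFB2 by 1.63 and SKIL by 1.44, and BMP7, SMAD6 and ID1 by −2.12, −2.0 and −1.36. BMP2 was lower in the HPV+ clone, with a log2 fold change of −1.36, and had −3.33 in the HPV− line. Of Hippo and Notch genes, F3 differed by 4.43, RBMS3 by 3.79, AMOTL2 by 1.93 and NRARP by 2.77, and LFNG by −2.46, TEAD2 by −1.82, JAG2 by −1.79 and GADD45B by −1.77.

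Epithelial genes showed large differences in both senses. KRT17 (5.69), DSG1 (5.77), GJB6 (5.99), ESRP1 (4.09), SNAI2 (2.13), DSC2 (2.01), KRT18 (1.20), CDH1 (1.17) and TP63 (1.15) were on the positive side. KRT13 (−5.42), CDH2 (−3.60), VIM (−2.94), CDH3 (−2.37), GJD3 (−1.75) and TWIST1 (−1.72) were on the negative side. GJB6 was lower in both lines, with −7.22 in the HPV− line. Of squamous differentiation genes, SERPINB3 differed by 7.92, ZNF750 by 7.78, CSTA by 4.0 and DMKN by 3.32, against −2.90 for CNFN and −1.49 for KLF4. The transcription factors RUNX1 and SOX9 differed by 1.52 and 1.5, and ARNT2, GATA2 and PITX1 by −2.52, −1.60 and −1.53. Matrix genes with positive values were FBLN5 (3.15), LAMA3 (2.44), COL5A2 (2.19), COL12A1 (1.91) and COL8A2 (1.91), and those with negative values BGN (−2.97), CCN2 (−2.82), GPC1 (−1.27) and SDC1 (−1.13).

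The interferon-stimulated genes MX1 (3.28), ISG15 (2.74), OASL (2.73), RIGI (2.60), DDX60 (2.49) and SAMD9 (2.34) were all more positive in the HPV+ line, and GBP2 was not (−8.40). IL20RB differed by 4.44, CD274 by 3.55, CASP1 by 5.68 and CASP4 by 1.82, and TAPBPL, CASP10 and CD276 by −3.05, −1.71 and −1.16. Stress response genes had positive values too, 4.19 for ATF3, 2.57 for PPP1R15A, 1.88 for TRIB3, 1.46 for CHAC1 and 1.23 for CEBPG. Of p53 targets and relatives, PLK3 and CDKN1A differed by 3.06 and 1.72, and TP73 and AIFM2 by −3.59 and −1.19. CDKN2C differed by −2.58, CCNF by −1.06 and MPG by −1.33. Among genes of cisplatin handling and redox balance, AKR1C3 (3.70), SLC7A11 (1.77), ME1 (1.38) and LRRC8A (1.11) were positive, and ALDH3A1 (−3.66), ABCA3 (−3.30), SLC47A2 (−3.09), MT2A (−2.90), MT1X (−1.40) and GSTZ1 (−1.08) negative.

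Of the remaining genes, FABP4 differed by 4.39, AMIGO2 by 4.34, AP1M2 by 3.90, RBCK1 by 2.13 and SLC16A1 by 1.5. FABP4 was lower in both lines, with −5.52 in the HPV− line. CD9, LYPD1, SYNC, CAVIN3, GPNMB and SLC6A6 differed by −6.97, −5.77, −5.66, −5.34, −3.92 and −3.17. For genes at or near 0 counts in a group the fitted difference depends on a prior count and is no bound, which holds for HKDC1 (11.75), LY6E (10.76), KLHDC7B (10.14), PRLR (−9.93), TP53I11 (−8.51), H4C11 (−7.31) and, above, SERPINB3 and GBP2.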

How the results depend on the processing

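With 2 libraries per group the spread rests on 4 residual degrees of freedom, which limits what could be called. The 518 higher and 700 lower genes became 108 and 115 when tested against a log2 fold change of 1, 1164 and 1595 without a minimum fold, and 240 to 538 and 326 to 750 when any 1 of the 8 libraries was left out, fewest without HPV+ parental library 1, with 313 and 496 without HPV+ parental library 2. The other alternatives stayed within 1.5 times, with 503 and 729 by DESeq2. The 787 more positive and 1000 more negative differences between the lines became 231 and 269 when tested against 1, 1242 positive without a minimum fold, and 605 to 906 and 588 to 1110 when a library was left out, with 588 without HPV+ parental library 1. Of the 131 higher and 234 lower transcripts, 0 and 0 passed in the 4 HPV+ libraries alone, 368 and 529 with a filter of 5 CPM in 2 libraries, 246 and 523 without a filter, and 6 to 60 and 2 to 127 with a library left out. In each case the cause was not tested. The replicate numbers do not pair the libraries by any label (the correlation of the deviations of same-numbered HPV+ libraries was −0.015). With them as a replicate block 461 genes were higher and 662 lower, and 4 transcripts in each direction.

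Of 161 called genes named above, 0 changed direction under the alternatives run, 83 lost their call in the test against 1, 138 kept it under the other alternatives that left no library out, and 2, ABCA10 and SPRY4, lost it with the block. Of the 30 not called, 8 passed under an alternative, 4 of them in the test without a minimum fold alone. Small log2 fold changes that did not pass changed sign. With an offset for transcript length they were 0.02 for ATF4, 0.19 for ERBB2 and 0.06 for LRRC8A, and ATF4 had 0.00 with upper-quartile factors. When any 1 of the 8 libraries was left out, the values ran from −0.27 to 0.11 for COL1A1, −1.07 (without resistant library 1) to 0.11 for COL3A1, −0.17 to 0.01 for LRRC8A and 0.00 to 0.22 for USP11.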
